A study of Mus musculus with 6 samples.

Results

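Blood vessels and the membranes around the brain contribute a small share of the RNA in a whole-hippocampus extract, and 45 genes that mark their cells were followed here through 6 hippocampal libraries. The genes were taken by symbol from a table of 23361 genes. They comprise 12 genes of meningeal and perivascular fibroblasts, 13 of mural cells with the vessel basement membrane, and 20 of endothelial cells. All 45 were present and above 0 in every library, and 41 of them had a mean of at least 1 FPKM (sequenced fragments divided by transcript length and by library size). The 4 under that level were the mural genes Anpep, Myh11, Cnn1 and Des. The hippocampi came from Tet1+/+ mice, called wild-type, and from mice homozygous for the Tet1Δe4 allele, called Tet1-deficient, with 3 libraries of each. Mice of both genotypes had received electroconvulsive shock 1.5 to 2 hours before collection. No unshocked mice were analysed here, so every level below is a level after a seizure. The sources used here give neither strain nor age.

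Endothelial cells line the vessels and, in the brain, are sealed by tight junctions and equipped with transporters that together form the blood-brain barrier. Mural cells wrap this tube, as pericytes on capillaries and as contractile smooth muscle on arterioles. Fibroblasts lie in the meninges and around larger vessels, where they deposit fibrillar collagen and proteoglycans. Part of the meninges follows the hippocampal fissure and can be removed with the tissue or left behind, so the values are given library by library.

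The libraries differed among themselves in ways that touch these genes. Values are listed in the order of replicates 1, 2 and 3 throughout. On the first principal component of the 12533 genes that averaged 1 FPKM or more, which held 53.3% of the variance, wild-type replicate 1 and Tet1-deficient replicate 1 stood apart from the other 4. Wild-type replicate 1, whose title carries an f where the others carry an m, had 63.5 FPKM of Xist against at most 0.202 elsewhere, and 0.0381 FPKM of the Y-linked Ddx3y against at least 16.7. The title of wild-type replicate 3 carries a b where all the others carry an a. The labels explain none of these letters. Tet1 itself measured 0.977, 0.718 and 0.897 FPKM with the wild-type allele and 0.740, 0.685 and 0.638 FPKM with the deletion. These ranges overlapped, and a value over the whole gene does not check the loss of a single exon. FPKM gives no read count, so the depth behind each value is unknown, and the number of libraries limits the precision.

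As a group the vessel and membrane genes were lower in Tet1-deficient libraries on average, while the spread between libraries of 1 genotype was large. The log2 difference, taken as Tet1-deficient minus wild-type on log2(FPKM + 1), was negative for 41 of 45 genes, against 51.1% of the 19123 genes above 0 in the table. Its median was −0.28 over the 45 genes and −0.0017 over the 19123. By class, 12 of 12 fibroblast genes were lower with a median of −0.59, 11 of 13 mural genes with −0.28, and 18 of 20 endothelial genes with −0.21. These are directions of means. Many members shared their order of libraries, with wild-type replicates 1 and 3 both above wild-type replicate 2 for 39 of 45. The 45 directions are therefore not independent of one another. The members were also chosen with earlier results of these data known. In limma, fitted to all 12533 genes with Benjamini-Hochberg adjustment, 0 of the 41 tested members passed an adjusted p of 0.05, and 0.0319% of all genes did. An unadjusted p under 0.05 was reached by 2 of 41 members, Bgn and Tagln, and by 1.36% of all genes. The genotypes did not overlap for 2 of 45 members, Dcn and Cnn1, against 5.82% of the 19123 genes. In a bulk extract, fewer cells of a type and less RNA per cell cannot be told apart.

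**Figure D1:**
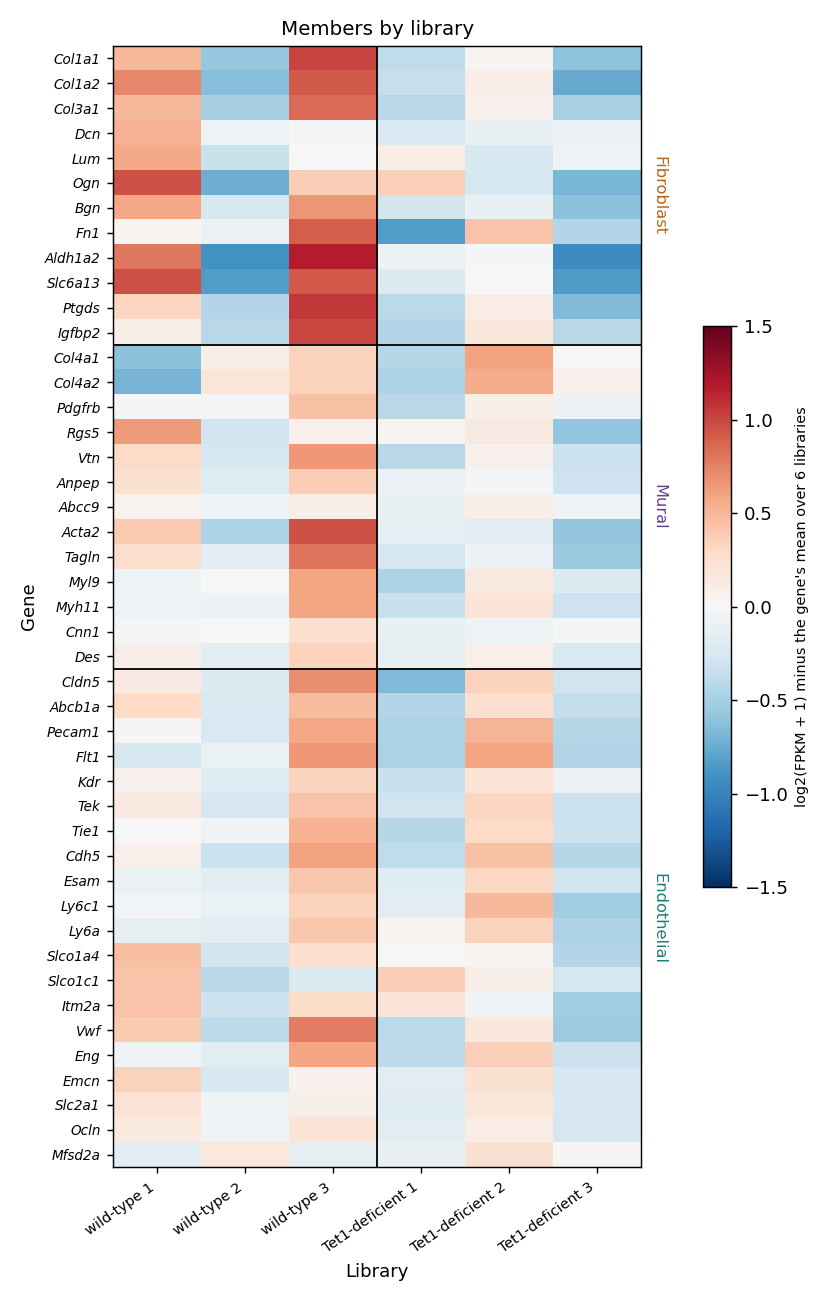
Deviation of each of the 45 genes (rows) in each of the 6 libraries (columns) from the gene's own mean, on log2(FPKM + 1), in red where higher and blue where lower. Wild-type replicate 3 was the highest library for 31 of 45 genes, and Tet1-deficient replicate 3 the lowest for 22.

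The members varied more between libraries of the same genotype than most genes did. The median within-genotype SD on log2(FPKM + 1) was 0.384 over the 45 members and 0.160 over the 12533 tested genes. It was 0.598 for the fibroblast, 0.342 for the mural and 0.368 for the endothelial genes. The ratio of the highest to the lowest library had a median of 2.63 over the members and 1.37 over all tested genes. Within the members it ran from 1.31 for Mfsd2a to 10.4 for Aldh1a2.

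Fibroblast genes showed the widest spread. Wild-type replicates 1 and 3 were both above wild-type replicate 2 for 12 of 12, and they were the 2 highest of the 6 libraries for 9 of 12. The median deviation of the 12 genes from their own means was 0.55, −0.47 and 0.91 (wild-type) against −0.31, 0.02 and −0.61 (Tet1-deficient). Wild-type replicate 2 thus lay between Tet1-deficient replicates 1 and 3, and for 9 of 12 genes it was below the Tet1-deficient mean.

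Col1a1, on chromosome 11 from 94936224 to 94953042 (GRCm38), encodes the α1 chain of type I collagen, the main fibrillar collagen of the meninges. It measured 4.44, 1.63 and 6.89 FPKM (wild-type) against 2.00, 3.01 and 1.57 FPKM (Tet1-deficient). The lowest wild-type library was below 2 of the 3 Tet1-deficient ones. Its log2 difference was −0.62 (SE 0.390, unadjusted limma p 0.155). Col1a2, on chromosome 6 from 4504814 to 4541544, encodes the partner α2 chain and followed the same order of libraries, with 7.52, 2.32 and 8.83 FPKM against 3.06, 4.54 and 2.08 FPKM.

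Col3a1, on chromosome 1 from 45311538 to 45349706, encodes type III collagen, which assembles with type I. Its wild-type libraries had 2.33, 0.681 and 3.29 FPKM and its Tet1-deficient libraries 0.776, 1.48 and 0.701 FPKM. The lowest value of all 6 was thus a wild-type one. The stretch before its annotated start is shown because it held a TATAAA motif. The sequence covers chr1:45311288-45311537 (GRCm38.p6, RefSeq, plus strand), with TATAAA in capitals.
Col3a1: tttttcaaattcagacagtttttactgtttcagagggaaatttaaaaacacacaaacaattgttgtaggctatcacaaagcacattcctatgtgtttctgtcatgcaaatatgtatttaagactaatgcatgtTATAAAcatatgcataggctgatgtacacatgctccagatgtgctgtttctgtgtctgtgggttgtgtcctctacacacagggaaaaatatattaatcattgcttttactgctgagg

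Start regions of 250 bases were available for 33 of the 45 members, in 38 windows, and were searched on both strands. TATAAA was found in 5 of the 38 windows and in 12.4% of all 32851 windows. GGGCGG, the GC box, was found in 16 of the 38, belonging to 15 genes, and in 32.7% of all windows. CAGGAA, a core read by ETS factors of the endothelium, was found in 8 of the 38 and in 25.7% of all windows. The CArG box, the site of serum response factor in muscle genes, was found in 1 of the 38, that of Myl9, and in 1.47% of all windows. All of these are letter matches in a fixed window and carry no measurement of binding. No window was available for the muscle genes Tagln and Myh11, and that of Acta2 lay mostly inside the annotated gene. Other windows also lay partly or wholly inside their genes, those of Col1a2 and Anpep wholly. The window of Abcb1a lay far before its annotated start. The counts therefore include windows that do not directly precede an annotated start.

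Small leucine-rich proteoglycans, which bind and space collagen fibrils, did not share one pattern. Bgn, on chromosome X from 73483602 to 73495933, encodes biglycan and had the smallest p of the fibroblast genes. It measured 8.72, 4.53 and 9.34 FPKM (wild-type) against 4.38, 5.03 and 3.24 FPKM (Tet1-deficient). Wild-type replicate 2 lay inside the Tet1-deficient range. The log2 difference was −0.67 (SE 0.258, unadjusted limma p 0.0359, adjusted p 1.00), and Bgn averaged 56.0% of its wild-type level. Without wild-type replicate 1, without wild-type replicate 3, or without Tet1-deficient replicate 1 or 3, no member had an unadjusted p under 0.05.

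Dcn, on chromosome 10 from 97479609 to 97518143, encodes decorin. It measured 33.0, 21.5 and 22.4 FPKM (wild-type) against 19.3, 21.1 and 21.4 FPKM (Tet1-deficient). The groups did not overlap, but wild-type replicate 2 and Tet1-deficient replicate 3 were nearly level and the difference of means came mostly from wild-type replicate 1. The two-sided exact permutation p was 0.1, the smallest that 3 libraries against 3 can give, and limma an unadjusted p of 0.142. Lum, for lumican, ranged from 1.23 to 3.19 FPKM, lowest in wild-type replicate 2 and highest in replicate 1 of each genotype. Ogn, for osteoglycin, measured 4.02, 0.534 and 2.29 FPKM against 2.27, 1.13 and 0.585 FPKM, a spread of 7.52-fold with both extremes in wild-type tissue.

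An enzyme and a transporter typical of the arachnoid and pia also spread widely. Aldh1a2, which encodes a retinoic acid-producing dehydrogenase of meningeal fibroblasts, measured 4.17, 0.593 and 5.72 FPKM (wild-type) against 1.81, 1.92 and 0.549 FPKM (Tet1-deficient). Slc6a13, a GABA transporter gene, gave 5.11, 0.748 and 4.89 FPKM and then 1.71, 2.13 and 0.732 FPKM. For both genes wild-type replicate 2 and Tet1-deficient replicate 3 were nearly equal and low. Their means were 40.8% and 42.5% of wild-type, the lowest shares among the 45 genes, with unadjusted limma p-values of 0.234 and 0.205.

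Ptgds was the most abundant of the fibroblast class and is not confined to it. It encodes prostaglandin D synthase, which meningeal cells, choroid plexus and oligodendrocytes make. It measured 433, 254 and 723 FPKM (wild-type) against 261, 372 and 217 FPKM (Tet1-deficient). Its log2 difference was −0.64 (SE 0.380, unadjusted limma p 0.140). Igfbp2, for an insulin-like growth factor binding protein, measured 15.3, 10.5 and 29.7 FPKM against 10.3, 16.3 and 10.5 FPKM. Fn1, for the matrix protein fibronectin, gave 5.92, 5.39 and 11.7 FPKM against 2.80, 8.10 and 4.02 FPKM. In these 3 genes the highest Tet1-deficient library was replicate 2 and the highest wild-type library replicate 3.

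**Figure D2:**
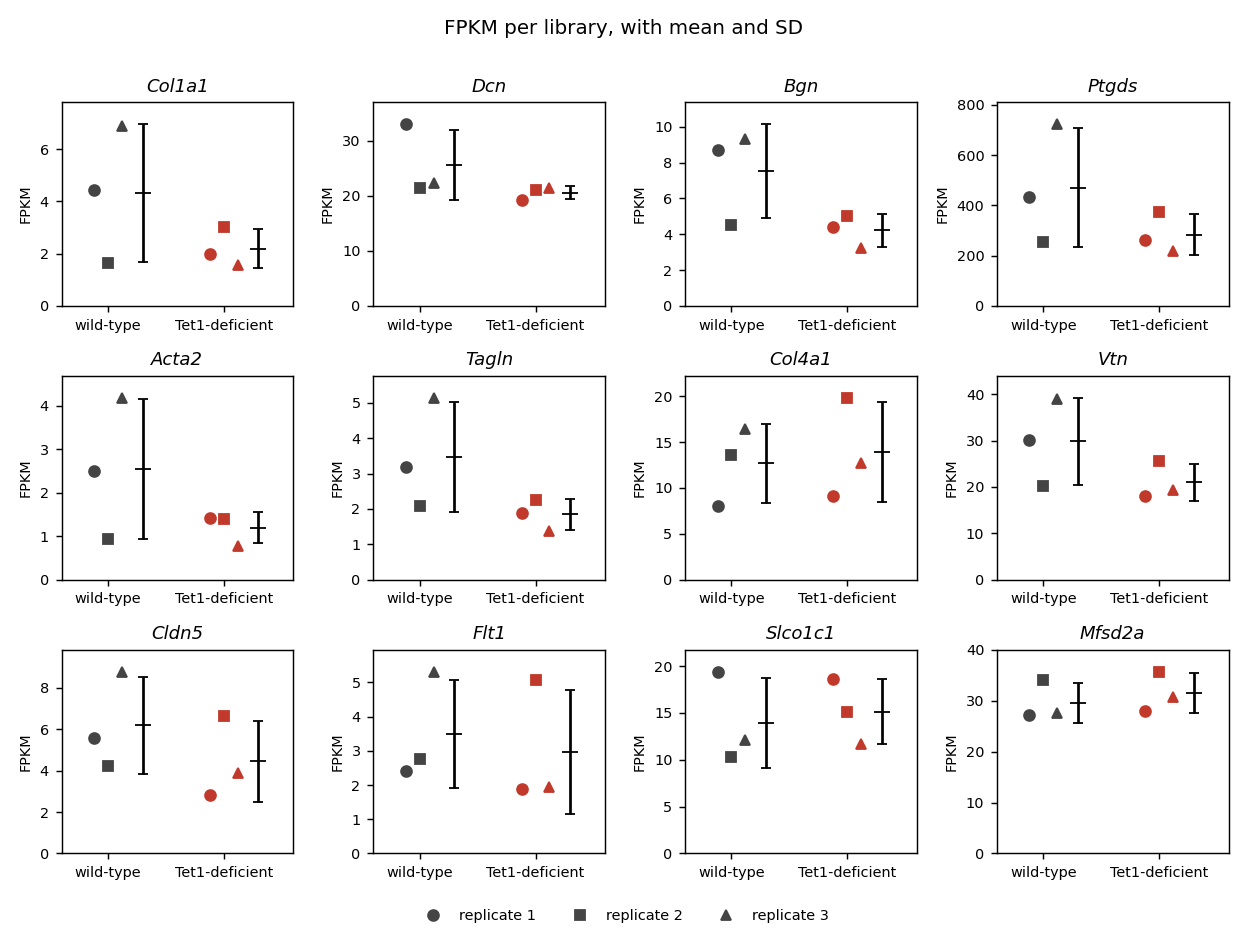
FPKM of 12 members in each library (circles, squares and triangles are replicates 1, 2 and 3; grey is wild-type, red Tet1-deficient), with the mean and SD of 3 libraries beside the points and each axis starting at 0. Of the genes shown, the genotypes overlap for all but Dcn, and wild-type replicate 3 reaches 6.89 FPKM in Col1a1 against 1.63 FPKM in wild-type replicate 2.

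Contractile smooth muscle genes shared their highest library. Wild-type replicate 3 was the highest library for each of Acta2, Tagln, Myl9, Myh11, Cnn1 and Des. Tagln, on chromosome 9 from 45929619 to 45936058, encodes transgelin, an actin-binding protein. It measured 3.18, 2.08 and 5.14 FPKM (wild-type) against 1.90, 2.26 and 1.37 FPKM (Tet1-deficient). Wild-type replicate 2 was below Tet1-deficient replicate 2, so the genotypes overlapped. The difference on the log2 scale was −0.61 (SE 0.255, unadjusted limma p 0.0494, adjusted p 1.00). With median-of-ratios scaling, quantile normalization or no filter on level, Tagln no longer had an unadjusted p under 0.05.

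Acta2, on chromosome 19 from 34241090 to 34255590, encodes smooth muscle α-actin. Its values were 2.50, 0.944 and 4.18 FPKM (wild-type) against 1.42, 1.39 and 0.777 FPKM (Tet1-deficient). The 3 Tet1-deficient libraries lay within the wild-type range except the last, which was below it. The log2 difference was −0.59 (SE 0.342, unadjusted limma p 0.128), with a mean of 47.1% of wild-type.

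Myl9, on chromosome 2 from 156775420 to 156781658, encodes a regulatory light chain of myosin and was the most abundant of the 6. It measured 5.32, 5.60 and 8.98 FPKM (wild-type) against 3.82, 6.30 and 4.75 FPKM (Tet1-deficient). Its start region is shown because it was the one member window with a CArG box. The sequence covers chr2:156775214-156775419 (GRCm38.p6, RefSeq, plus strand), with the CArG box and the GC boxes, read on either strand, in capitals.
Myl9: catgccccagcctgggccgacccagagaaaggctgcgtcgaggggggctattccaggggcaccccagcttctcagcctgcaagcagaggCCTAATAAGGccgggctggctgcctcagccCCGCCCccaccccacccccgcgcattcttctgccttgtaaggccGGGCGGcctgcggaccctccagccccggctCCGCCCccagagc

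The other contractile genes were scarce. Myh11, for smooth muscle myosin heavy chain, measured 0.630, 0.584 and 1.53 FPKM against 0.338, 0.930 and 0.360 FPKM. Des, for the intermediate filament protein desmin, gave 0.562, 0.299 and 0.854 FPKM against 0.342, 0.532 and 0.244 FPKM. Cnn1, for calponin, measured 0.145, 0.147 and 0.363 FPKM (wild-type) against 0.0740, 0.0969 and 0.133 FPKM (Tet1-deficient). Cnn1 did not overlap between genotypes (exact two-sided permutation p = 0.1, the smallest possible), at levels where a log2 difference on FPKM + 1 understates the ratio and few fragments decide a value.

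Pericyte genes overlapped between genotypes. Pdgfrb, the receptor through which endothelial PDGF-B recruits pericytes, measured 3.27, 3.26 and 4.82 FPKM (wild-type) against 2.22, 3.61 and 3.07 FPKM (Tet1-deficient) (log2 difference −0.27, SE 0.180, unadjusted limma p 0.178). Vtn, for vitronectin, gave 30.2, 20.3 and 39.0 FPKM against 18.1, 25.6 and 19.4 FPKM (log2 difference −0.45, unadjusted limma p 0.105). In both genes wild-type replicate 3 was highest and Tet1-deficient replicate 1 lowest. Rgs5, a regulator of G-protein signalling abundant in pericytes, had another order, with 25.9, 13.1 and 17.1 FPKM against 16.7, 17.9 and 10.5 FPKM. Abcc9, for a subunit of the pericyte potassium channel, stayed between 0.910 and 1.21 FPKM in all libraries, and the aminopeptidase gene Anpep between 0.355 and 1.17 FPKM.

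The basement membrane collagens stood apart from the rest of the mural class. Col4a1 measured 7.98, 13.6 and 16.4 FPKM (wild-type) against 9.17, 19.8 and 12.7 FPKM (Tet1-deficient). Col4a2 gave 8.72, 16.8 and 19.0 FPKM and then 10.4, 22.1 and 15.5 FPKM, the same order of libraries. Replicate 1 of each genotype was below the other 4 libraries for these 2 genes and for no other member, and those are the libraries that stood apart on the first principal component. Their log2 differences were 0.12 and 0.11 (SE 0.325 and 0.341, unadjusted limma p 0.730 and 0.752).

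Col4a1 and Col4a2 lie head to head on chromosome 8, Col4a1 from 11198423 to 11312826 on the minus strand and Col4a2 from 11312805 to 11449287 on the plus strand. The annotation gives the 22 bases chr8:11312805-11312826 to both genes, and they are shown because the pair starts from them (GRCm38.p6, RefSeq, plus strand, no part capitalised).
Col4a1 and Col4a2: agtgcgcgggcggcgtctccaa

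Endothelial genes had a high library in each genotype. Wild-type replicate 3 and Tet1-deficient replicate 2 were the 2 highest libraries for 11 of 20 genes, against 6 of 13 mural and 2 of 12 fibroblast genes. Tet1-deficient replicate 2 exceeded both other Tet1-deficient libraries for 18 of 20, and also for 11 of 13 mural and 9 of 12 fibroblast genes. It exceeded the wild-type mean for 17 of 20, against 4 of 13 mural and 1 of 12 fibroblast genes. The median deviation of the 20 genes was 0.10, −0.20 and 0.41 (wild-type) against −0.25, 0.28 and −0.33 (Tet1-deficient). Tet1-deficient replicates 1 and 3 were together the lowest library for 18 of 20, and likewise for 11 of 13 mural and 9 of 12 fibroblast genes.

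Among junction and adhesion genes, Cldn5, on chromosome 16 from 18776847 to 18778262, encodes claudin-5, the main sealing protein of brain endothelial tight junctions. It measured 5.57, 4.21 and 8.78 FPKM (wild-type) against 2.82, 6.62 and 3.90 FPKM (Tet1-deficient). The second-highest of all 6 values was Tet1-deficient. The log2 difference was −0.41 (SE 0.311, unadjusted limma p 0.228). Its start region is given as the endothelial counterpart of the collagen and myosin sequences. It covers chr16:18776597-18776846 (GRCm38.p6, RefSeq, plus strand), with the GC box, read on the opposite strand, in capitals.
Cldn5: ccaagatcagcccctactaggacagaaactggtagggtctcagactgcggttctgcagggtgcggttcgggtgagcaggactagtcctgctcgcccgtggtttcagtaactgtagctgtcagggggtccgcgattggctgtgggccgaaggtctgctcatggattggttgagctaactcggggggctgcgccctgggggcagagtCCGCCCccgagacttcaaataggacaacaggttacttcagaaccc

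Pecam1, for the adhesion molecule CD31, measured 2.40, 1.87 and 4.03 FPKM (wild-type) against 1.43, 3.76 and 1.49 FPKM (Tet1-deficient). Cdh5, for VE-cadherin, gave 1.77, 1.10 and 2.97 FPKM and then 1.01, 2.55 and 0.944 FPKM. In both, 1 library of each genotype was high and the rest were low. Ocln, for the tight junction protein occludin, varied less, with 2.27, 1.86 and 2.42 FPKM against 1.67, 2.21 and 1.49 FPKM. Esam, for an adhesion molecule of endothelial contacts, ranged from 2.46 to 4.60 FPKM and Emcn, for the sialomucin endomucin, from 0.953 to 1.95 FPKM, each with overlap.

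Growth factor receptors had wild-type replicate 3 and Tet1-deficient replicate 2 as their highest libraries. Flt1, on chromosome 5 from 147561604 to 147726011, encodes VEGF receptor 1 and measured 2.40, 2.76 and 5.32 FPKM (wild-type) against 1.88, 5.06 and 1.95 FPKM (Tet1-deficient). Its highest values in the genotypes were nearly equal, and the log2 difference was −0.22 (SE 0.350, unadjusted limma p 0.558). Without wild-type replicate 3 that difference turned to 0.06. Kdr, for the principal signalling receptor of VEGF-A, gave 1.09, 0.751 and 1.52 FPKM against 0.586, 1.30 and 0.882 FPKM. Tek, for the angiopoietin receptor Tie2, ranged from 0.716 to 1.88 FPKM. Its relative Tie1 measured 1.28, 1.21 and 2.29 FPKM (wild-type) against 0.699, 1.82 and 0.828 FPKM (Tet1-deficient) (log2 difference −0.30, unadjusted limma p 0.243). Eng, for the TGF-β co-receptor endoglin, had 2.31, 2.05 and 4.19 FPKM against 1.62, 3.42 and 1.75 FPKM.

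Vwf, for von Willebrand factor of larger vessels, had the most negative log2 difference of the endothelial genes. It measured 1.98, 0.728 and 2.85 FPKM (wild-type) against 0.715, 1.54 and 0.566 FPKM (Tet1-deficient). Wild-type replicate 2 was level with Tet1-deficient replicate 1. The difference was −0.51 (SE 0.317, unadjusted limma p 0.151), at a mean of 50.8% of wild-type.

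Transporters of the barrier did not share one order of libraries. Slc2a1, which encodes the glucose transporter GLUT1, was the most abundant endothelial member, with 66.8, 54.8 and 61.1 FPKM (wild-type) against 50.1, 65.3 and 48.2 FPKM (Tet1-deficient), a range of 1.38-fold. Mfsd2a, for the lipid transporter that keeps transcytosis low in brain endothelium, had the smallest ratio of highest to lowest library among the members, with 27.2, 34.0 and 27.5 FPKM against 28.0, 35.7 and 30.7 FPKM. Replicate 2 was its highest library in each genotype. Slco1c1, a thyroid hormone transporter gene that astrocytes also express, measured 19.4, 10.3 and 12.1 FPKM against 18.6, 15.1 and 11.6 FPKM. Replicate 1 of each genotype exceeded the other 4 libraries. Of 8 astrocyte marker genes, 5 showed the same split, Aqp4 among them with 64.0 and 50.1 FPKM in those replicates and at most 33.6 FPKM elsewhere. Aldh1l1 had the opposite split, with 16.1 and 15.9 FPKM against at least 21.5 FPKM, and Gfap and Gjb6 had neither. The summed FPKM of the 8 genes ran from 823 to 1067 (wild-type) and from 853 to 1041 (Tet1-deficient), with 0 of them at 0 in any library. The part of astrocytes in the Slco1c1 values was not tested.

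Abcb1a, for the efflux pump P-glycoprotein, measured 3.74, 2.29 and 4.35 FPKM (wild-type) against 1.83, 3.59 and 2.00 FPKM (Tet1-deficient) (log2 difference −0.36, SE 0.245, unadjusted limma p 0.180). Slco1a4, for an organic anion transporter, gave 4.85, 2.51 and 4.10 FPKM against 3.29, 3.36 and 2.16 FPKM (log2 difference −0.28, unadjusted limma p 0.248). Both overlapped, and wild-type replicate 2 lay in the lower part of the 6 libraries. Itm2a, a membrane protein gene prominent in brain endothelium, ranged from 11.7 to 23.6 FPKM. The surface antigen genes Ly6c1 and Ly6a ranged from 14.2 to 29.4 and from 6.10 to 11.9 FPKM, both with the lowest value in Tet1-deficient replicate 3. Ly6c1 shares 97.4% of its transcript at 95% identity or more with Ly6c2, listed at up to 0.264 FPKM, so the division of reads between them is uncertain.

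**Figure D3:**
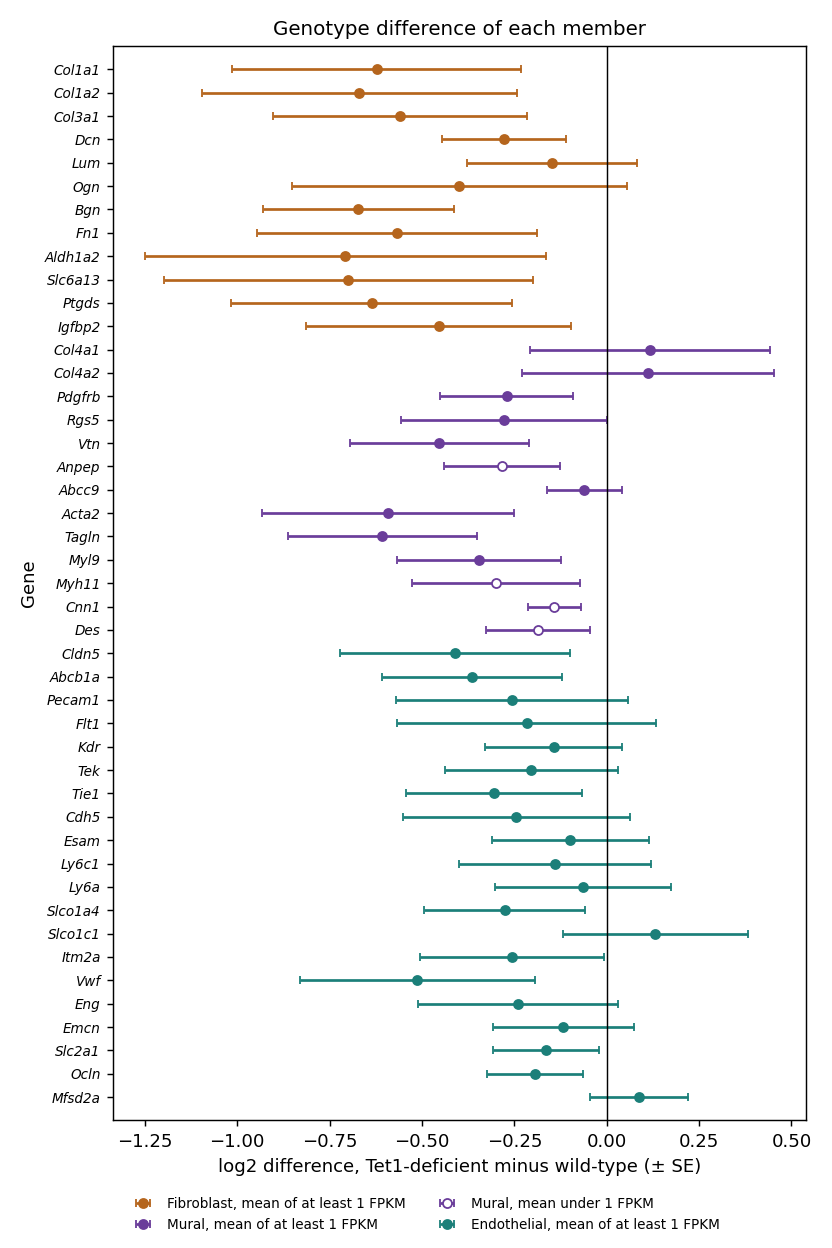
Log2 difference in log2(FPKM + 1), Tet1-deficient minus wild-type, of each of the 45 members with limma's SE (3 libraries per genotype), coloured by class; open circles mark genes with a mean under 1 FPKM, fitted with all genes above 0. The differences run from −0.71 for Aldh1a2 to 0.13 for Slco1c1, and Col4a1, Col4a2, Slco1c1 and Mfsd2a are the 4 genes to the right of 0.

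Which libraries entered set the size of these class medians. Without wild-type replicate 3 the median log2 difference was −0.29 for fibroblast, −0.12 for mural and −0.04 for endothelial genes. Without wild-type replicate 2 the same medians were −0.95, −0.42 and −0.35, and an unadjusted p under 0.05 was then reached by 14 of 41 members and by 204 of 12550 genes. Leaving out Tet1-deficient replicate 2 gave −0.79, −0.39 and −0.39, while leaving out Tet1-deficient replicate 3 gave −0.45, −0.20 and −0.09. Without Tet1-deficient replicate 1 the endothelial median was −0.10. In all of these fits 0 members passed the adjusted threshold, and 38 to 44 of the 45 genes were lower.

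Further genes listed under the same classes, or under vascular signalling, were mostly lower on average too. Whether each of them is confined to vessel or membrane cells was not tested. These lists, like the members, were chosen with earlier results of these data known. Among 29 further fibroblast genes, 26 were lower, with a median log2 difference of −0.31. Of 28 further mural genes 24 were lower (median −0.11), as were 32 of 39 further endothelial genes (median −0.09) and 36 of 46 genes of vascular signalling (median −0.08). Of their 20, 16, 30 and 34 tested genes, 0 passed the adjusted threshold in either direction. The fibroblast gene Lama2, for a laminin chain, measured 2.19, 2.12 and 2.64 FPKM (wild-type) against 1.56, 1.86 and 1.61 FPKM (Tet1-deficient), without overlap (unadjusted limma p 0.0214). Tpm2, for a muscle tropomyosin, gave 1.04, 1.55 and 1.91 FPKM against 0.539, 0.875 and 0.801 FPKM, also without overlap (unadjusted limma p 0.0130). Overlap was absent for 2 of 29 fibroblast, 6 of 28 mural, 3 of 39 endothelial and 3 of 46 signalling genes, against 5.82% of the 19123 genes. The other fibroblast gene of these, at a mean of 0.681 FPKM, was higher in Tet1-deficient libraries. Of the 6 mural genes without overlap, Tpm2 was the only one to average 1 FPKM or more. The others averaged 0.120 to 0.935 FPKM, so few fragments may decide their values.

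Among the further endothelial genes, Slc38a5 had the smallest adjusted limma p. Slc38a5, a glutamine transporter gene, measured 2.104, 2.14 and 2.43 FPKM (wild-type) against 0.949, 0.902 and 0.677 FPKM (Tet1-deficient). Its log2 difference was −0.81 (SE 0.102, adjusted limma p 0.189). Its wild-type replicate 2 was level with replicate 1, whereas wild-type replicate 2 was below replicates 1 and 3 for 18 of 20 endothelial members. Neither this nor the closeness of its libraries within each genotype was particular to Slc38a5. Other genes of the further endothelial list were as close, and several had wild-type replicate 2 above replicate 1. Among signalling genes, Hes1, a Notch effector gene, had 5.46, 5.93 and 6.08 FPKM against 4.62, 4.70 and 5.10 FPKM (unadjusted limma p 0.0335).

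Markers of some neighbouring tissues moved with some of these values. Of 15 choroid plexus genes, 11 were highest in Tet1-deficient replicate 2 and 4 in wild-type replicate 3, the libraries that led the endothelial genes. Ttr, the transthyretin gene that choroid plexus epithelium expresses most, measured 11.7, 3.44 and 294 FPKM (wild-type) against 17.7, 187 and 5.85 FPKM (Tet1-deficient). The summed choroid plexus FPKM ran from 65.2 to 388 in wild-type and from 65.4 to 314 in Tet1-deficient tissue. Most of the lowest sums was Enpp2, at 54.6 FPKM in wild-type replicate 2 and 52.7 FPKM in Tet1-deficient replicate 3. Of the 15 genes, 5 averaged 1 FPKM or more. Of the defining genes, Steap1 was listed at 0 in wild-type replicate 1. Without the libraries high in Ttr, 1 of each genotype, the class medians were −0.45 for fibroblast, −0.24 for mural and −0.27 for endothelial genes, and 42 of 45 members were lower. The median deviation of 8 ependyma genes ran from −0.33 in wild-type replicate 2 to 0.12 in wild-type replicate 3. That of 9 genes of nearby brain regions ran from −0.09 to 0.10. In Tet1-deficient libraries 2 of the 8 and 6 of the 9 were lower, against 51.1% of the 19123 genes above 0.

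Border macrophages, which share the meninges and perivascular spaces, followed the fibroblast order. Of 9 marker genes 9 were lower in Tet1-deficient libraries, with a median log2 difference of −0.19, against 51.1% of the 19123 genes above 0. Only 1 of the 9 averaged 1 FPKM or more, so most of these values were near the floor. Their summed FPKM was 8.72, 4.87 and 10.04 (wild-type) against 6.34, 6.69 and 4.13 (Tet1-deficient), and Cd209f was listed at 0 in Tet1-deficient replicate 3. Mrc1, for the mannose receptor, measured 1.14, 0.518 and 1.13 FPKM against 0.677, 0.800 and 0.505 FPKM. Granulocyte genes marked a single library: S100a8 measured 20.1 FPKM in wild-type replicate 3 and at most 2.85 FPKM in the others, and it was listed at 0 in wild-type replicate 2. The summed FPKM of 9 blood cell genes, haemoglobins included, ran from 5.91 to 65.6 in wild-type and from 4.98 to 16.5 in Tet1-deficient tissue. In wild-type replicate 3, the highest sum, S100a8 and S100a9 gave 20.1 and 22.7 FPKM of it. That library was the highest for 5 of the 9 genes, and Tet1-deficient replicates 1 and 2 for 2 each. Among the haemoglobin genes only Hba-a2 was highest in wild-type replicate 3. The part of these tissues in the vessel and membrane values was not tested.

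Parenchymal cell markers varied less than the member classes in the median of each list. The summed FPKM of 10 microglia genes ran from 186 to 188 in wild-type and from 183 to 195 in Tet1-deficient libraries. That of 10 hippocampal neuron genes ran from 2598 to 2719 and from 2700 to 2886, with 0 of these genes at 0 in any library. That of 8 oligodendrocyte genes ran more widely, from 3390 to 3634 and from 3093 to 4040. Single genes also ran more widely than a sum, up to 2.07-fold between libraries among the microglia genes. The median within-genotype SD was 0.174 for the microglia, 0.149 for the neuron, 0.198 for the astrocyte and 0.226 for the oligodendrocyte genes. It was 0.598 for the fibroblast, 0.342 for the mural and 0.368 for the endothelial members.

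**Figure D4:**
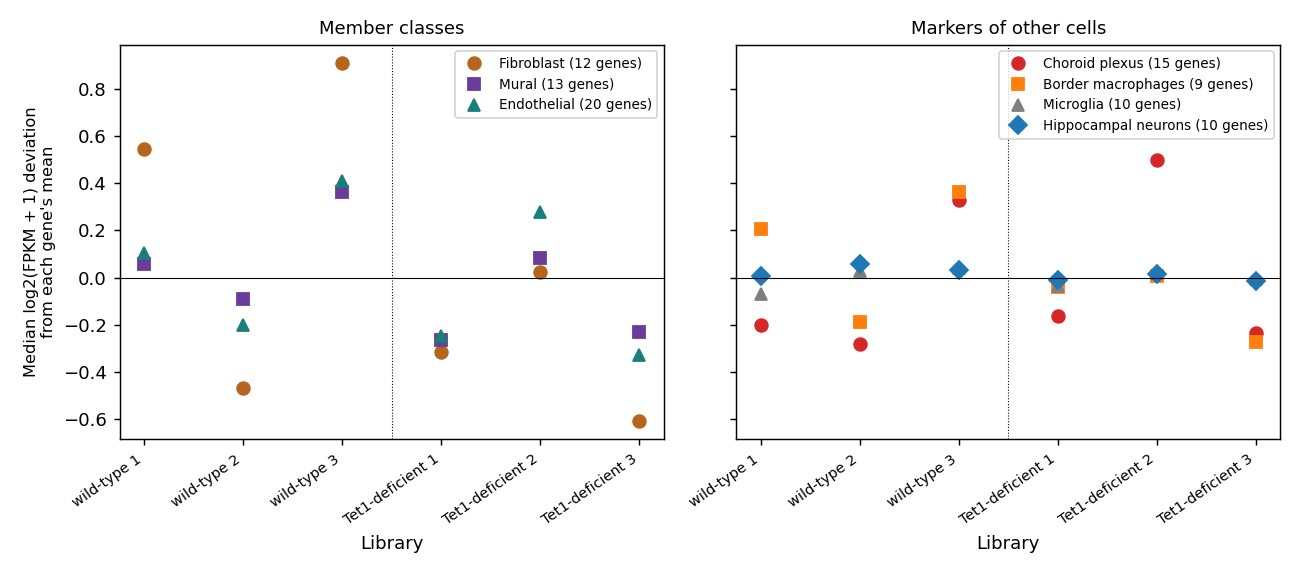
Median deviation of each gene list from its genes' own means, on log2(FPKM + 1), in each of the 6 libraries, for the 3 member classes (left) and for markers of other cells (right). The fibroblast median runs from −0.61 to 0.91, choroid plexus markers lead in Tet1-deficient replicate 2 at 0.50, and microglia and neuron markers stay near 0.

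Some members share bases with other annotated genes. GENCODE places a gene on the opposite strand over 13 of the 45, among them Pcsk7 over Tagln and Fpgs over Eng, and a same-strand gene over 7. The sources used here name no strand setting for the counting, so reads of such pairs may not have been told apart.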

How the data were processed

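RNA of whole hippocampus from 3 wild-type and 3 Tet1-deficient mice was sequenced by the authors, who deposited gene-level FPKM values. TopHat2 2.0.9, Cufflinks 2.1.1 and the build mm10 are named in the submitters' processing notes; annotation, strand setting and treatment of multiply mapped reads are not. Samples were grouped by the labelled genotype, and replicate numbers follow the order of the samples and pair nothing.

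FPKM was taken as log2(FPKM + 1). The 12533 genes averaging 1 FPKM or more were fitted with limma 3.58.1 in R 4.3.3 (intensity trend, no covariate, two-sided, Benjamini-Hochberg, threshold 0.05), a step tested on simulated data. The simulated differences were larger than that of any member, and every gene had the same spread. The simulation therefore does not show whether differences of the members' size and spread could be detected. Members under 1 FPKM were fitted with all 19123 genes above 0. Members given library by library were the up to 6 tested genes with the smallest p in each class and 9 defining genes. Other members given that way, and the named astrocyte genes, were chosen after their values were seen. From further lists at most the 4 smallest p-values could be named. The members and lists were chosen with earlier results of these data known. Positions come from GENCODE M21 on GRCm38, and similar transcripts were sought with BLAST at 95% identity over at least 20% of the length. Start regions are RefSeq's.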

Additional observations from a re-analysis of the deposited data

How the results depend on the processing

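Under a pseudocount of 0.1 FPKM, no filter, median-of-ratios scaling, quantile normalization, no trend, library weights, a threshold of 0.1, and each omission of libraries, 0 members passed in limma. The count of all genes called was 4, and 59 with library weights, 13 without the libraries that stand apart, 8 with these as a term, 0 without the libraries high in choroid plexus genes, and 0 to 6 with 1 library left out. The choroid plexus omission and the term were chosen after the data were seen. Of the 20 members given by the rule, Flt1 changed sign without wild-type replicate 3, to 0.058 (range with 1 library left out −0.57 to 0.058); the cause was not tested. With a pseudocount of 0.1 FPKM the class medians were −0.72, −0.46 and −0.29 for fibroblast, mural and endothelial genes, and without the libraries that stand apart −0.44, −0.20 and −0.14. Depth is unknown, so no counting error is given.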
